A study of Mus musculus with 8 samples.

Results

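The genes described here code for the matrix around muscle fibres and tendon, and for markers of the fibroblasts that lay it down. They were chosen by name, as 47 symbols looked up in the gene column of the deposited table of 24033 genes. Each of the 47 matched 1 row, and all 47 reached the mean of 1 FPKM (fragments per kilobase of transcript, scaled to the mapped fragments of the library) required for testing, among 12535 genes that did. The table holds soleus muscle, a slow hindlimb muscle, of mice aged 2 months. The 4 MyoCre samples had the genotype Myogenin-Cre/+, a Cre recombinase under the control of the myogenin gene. The 4 K15-SKO samples were Myogenin-Cre/+;K15F/F, and thus had that Cre plus Klf15 alleles flanked by loxP sites. The protein it codes for belongs to the Kruppel-like transcription factors. Both groups therefore carried the Cre, and floxed mice without it are not analysed here. Myogenin marks differentiating muscle cells, and the other cells of the muscle, fibroblasts included, are not of that lineage.

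Muscle fibres are wrapped in a basement membrane, a thin sheet of type IV collagen, laminin, nidogen and perlecan that both the fibres and the capillary endothelium contribute to. Outside it lies the interstitial matrix, built mainly by fibroblasts from fibrillar collagens, collagen VI, small leucine-rich proteoglycans and glycoproteins, which passes at the muscle's ends into tendon. Collagen chains are assembled in the endoplasmic reticulum, trimmed outside the cell, cross-linked by lysyl oxidases and turned over by metalloproteinases whose inhibitors are the Timp proteins.

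The libraries were checked first. The mean of Klf15 was 41.6 ± 12.7 FPKM for MyoCre and 16.2 ± 2.58 FPKM for K15-SKO (mean ± SD of 4 libraries, as throughout; log2 fold change -1.28, limma adjusted p = 0.0315). MyoCre replicate 4 held 22.8 FPKM of Klf15, against 44.5 to 49.8 FPKM in MyoCre replicates 1 to 3 and 13.1 to 19.3 FPKM in K15-SKO muscle. The slow myosin Myh7 ranged from 669 FPKM in that same MyoCre replicate 4 to 2279.8 FPKM in MyoCre replicate 1. Cartilage and bone markers were at or near 0, with Acan, Sox9, Col2a1 and Bglap adding up to 0.942 to 2.14 FPKM a library. The deposited values summed to between 519884 and 652275 per library. Depth is not given with FPKM, and the size of the lowest values put it only roughly, with MyoCre replicate 2 the deepest at an estimated 20693100 fragments and the others at 7102590 to 10765200. MyoCre replicate 2 was also the only male library by its Y-linked genes (16.2 FPKM on average, 0 elsewhere), and the scaling factor of K15-SKO replicate 3 by the median of ratios was 0.801, below the 0.967 to 1.16 of the rest. Counts and co-variation are given with and without those libraries.

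No member passed the test between the genotypes. Of the 47 genes 0 were lower and 0 were higher at a limma adjusted p of 0.05, where 0.183% of all genes tested were called lower and 0.367% higher. Higher calls among all genes were made only while genes listed at 0 throughout a genotype stayed in the fit. At an unadjusted p under 0.05 by limma, 4 were lower (Kera, Tnc, Fn1 and Col1a2) and 0 were higher, or 8.51% of the members lower against 3.43% of all genes, with 0.901% of all genes higher. The libraries of the 2 genotypes overlapped for all 47 genes, while 2.72% of all genes had every K15-SKO library below every MyoCre library and 0.630% every one above. Fold changes were negative for 39 of the 47 (83.0%), close to the 77.0% of all genes. Their median was -0.31 on the log2 scale, with -0.12 for all genes tested, and 36 of the 47 lay below the median of all genes. Scaling the libraries by the median of ratios moved the median of all genes to 0.00 and that of the members to -0.18. Because these are whole muscles, fewer cells of a type and less RNA per cell cannot be told apart.

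**Figure D1:**
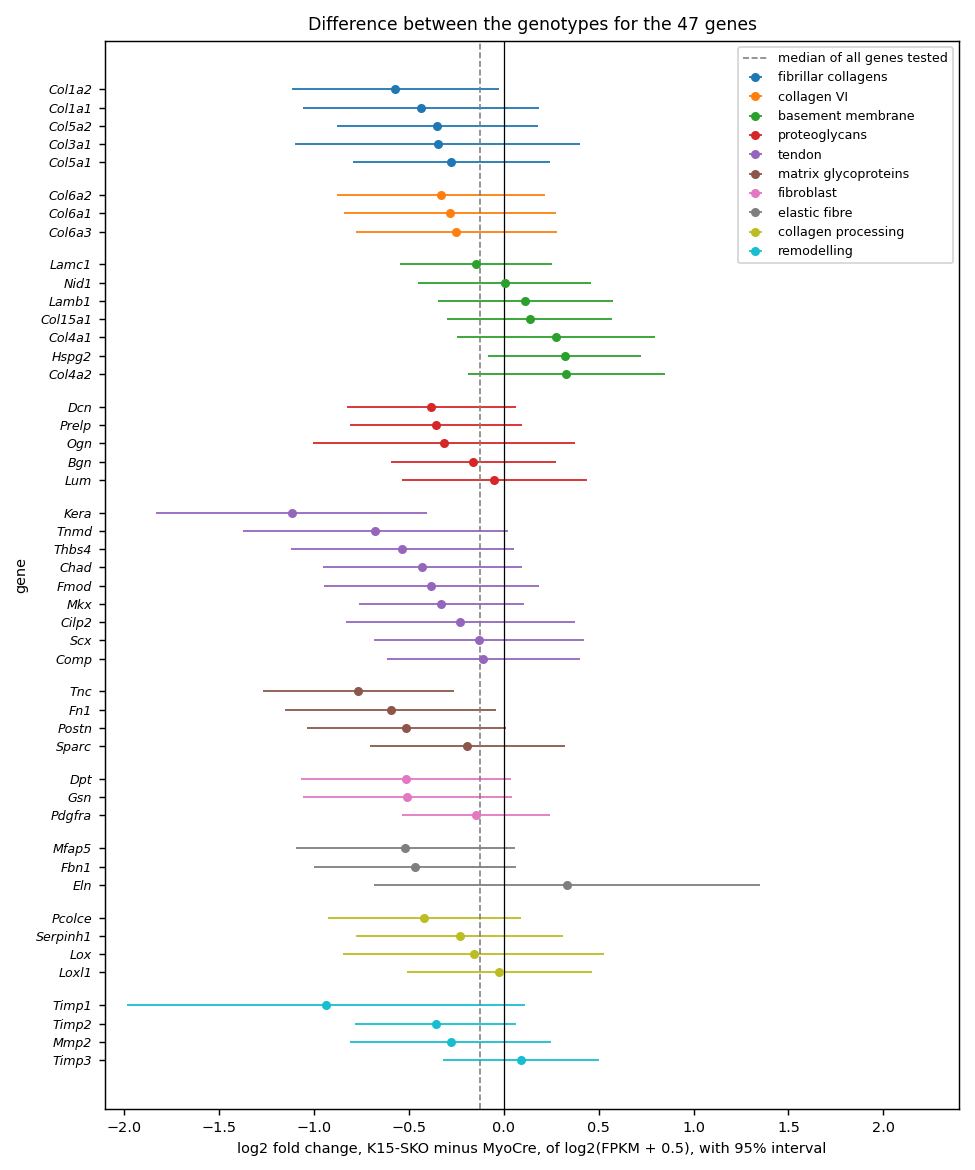
Log2 fold change (K15-SKO minus MyoCre, on log2(FPKM + 0.5), horizontal axis) of each of the 47 genes with its 95% interval from limma, coloured by role group. The solid line marks 0 and the dashed line the median of all genes tested, -0.12, and 6 of the 7 basement membrane genes lie to the right of 0 (Lamb1 and Nid1 not so with library weights) while all 5 fibrillar collagens lie to the left.

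The members' position depended on single libraries. MyoCre replicate 2 held the highest value of 25 of the 47 genes and K15-SKO replicate 1 the lowest value of 26. Without MyoCre replicate 2 the median of the members was -0.16 with -0.12 for all genes, and 25 of 47 lay below the median of all genes. Without K15-SKO replicate 1 it was -0.17 with -0.15, and 24 of 47 lay below. Leaving out MyoCre replicate 2 and K15-SKO replicate 3 together gave -0.24 with -0.03, and 38 of 47 below. The distance was larger without K15-SKO replicate 3, with -0.37 for the members, -0.03 for all genes and 41 of 47 below, and with library weights, with -0.46, -0.04 and 42 of 47 below. None of these fits called a member. As a share of all FPKM, the 47 genes held 0.328, 0.490, 0.381 and 0.377% in MyoCre replicates 1 to 4 and 0.258, 0.375, 0.398 and 0.301% in K15-SKO replicates 1 to 4. The 2 ranges overlap, with the MyoCre 2 share the highest and the K15-SKO 1 share the lowest.

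Fibrillar collagens, the rope-like collagens of interstitial matrix and tendon, had the lower mean in K15-SKO muscle for all 5 genes, with none past the test. Col1a2, the alpha 2 chain of type I collagen on chromosome 6 from 4504814 to 4541544 (mm10), held 109, 255, 168 and 174 FPKM in MyoCre replicates 1 to 4 and 91.1, 142, 138 and 93.3 FPKM in K15-SKO replicates 1 to 4. K15-SKO replicates 2 and 3 lay among the MyoCre libraries, while replicates 1 and 4 were below them all. The means were 176 ± 59.97 and 116 ± 27.5 FPKM (log2 fold change -0.57, SE 0.25, limma adjusted p = 0.957; unadjusted p = 0.0420). Col1a1, the alpha 1 chain of the same molecule, measured 144 ± 49.2 and 107 ± 43.8 FPKM, and K15-SKO replicate 3, at 171 FPKM, was the second highest of the 8. Its log2 fold change was -0.44, with a 95% interval of -1.06 to 0.19. Col3a1, type III collagen, ranged from 45.2 to 135 FPKM in K15-SKO and from 82.4 to 165 FPKM in MyoCre muscle. Col5a1 and Col5a2, chains of the type V collagen that starts fibril assembly, were less abundant per length, with means of 11.8 ± 3.11 and 9.77 ± 3.07 FPKM for Col5a1. The log2 fold changes of Col3a1, Col5a1 and Col5a2 were -0.35, -0.27 and -0.35.

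Collagen VI, the beaded microfibril that links cells to the interstitial matrix, had the lower mean in K15-SKO muscle for all 3 genes, with none past the test. Col6a2 held 17.3, 32.9, 19.4 and 16.4 FPKM in the 4 MyoCre libraries and 12.6, 23.3, 18.2 and 13.3 FPKM in the 4 K15-SKO ones (log2 fold change -0.33, SE 0.25, limma adjusted p = 0.957). Col6a1, the most abundant of the chains, held 24.97, 42.1, 28.7 and 23.8 FPKM in the 4 MyoCre libraries and 17.8, 33.5, 31.3 and 17.2 FPKM in the 4 K15-SKO ones. In both genes the MyoCre 2 library was the highest of the 8, and K15-SKO replicates 2 and 3 exceeded MyoCre replicates 1, 3 and 4 or lay among them. Col6a3 had a log2 fold change of -0.25, beside -0.28 for Col6a1.

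Basement membrane genes stood on the other side. Of 7 genes 6 had a positive fold change, 2 of which (Lamb1 and Nid1) turned with library weights and without K15-SKO replicate 3. The laminin gamma 1 chain Lamc1 was at -0.14, and the median of the 7 was 0.14 on the log2 scale, or 0.26 above that of all genes. None passed the test, and none had an unadjusted p under 0.05. Hspg2, which codes for perlecan, held 20.3, 32.7, 27.04 and 23.3 FPKM in the 4 MyoCre libraries and 27.8, 32.1, 35.2 and 33.1 FPKM in the 4 K15-SKO ones. The MyoCre 2 library reached the K15-SKO range and the other 3 MyoCre libraries lay below it (log2 fold change 0.32, SE 0.19, limma adjusted p = 0.957). Col4a1, a chain of the type IV collagen network, held 41.04, 70.5, 48.5 and 39.2 FPKM in the 4 MyoCre libraries and 43.98, 72.8, 77.1 and 48.3 FPKM in the 4 K15-SKO ones. Its K15-SKO libraries formed a high pair, replicates 2 and 3, and a low pair, replicates 1 and 4, and the log2 fold change was 0.28 with a 95% interval of -0.24 to 0.80. Col4a2, its partner chain, measured 30.7 ± 9.85 and 38.3 ± 9.65 FPKM, or 125% of the MyoCre mean. The genes lie head to head on chromosome 8, Col4a1 from 11198423 to 11312826 on the minus strand and Col4a2 from 11312805 to 11449287 on the plus strand, so their annotated 5′ ends overlap. Col15a1, a collagen of the zone next to the basement membrane, had a log2 fold change of 0.14, the laminin beta 1 chain Lamb1 one of 0.11 and nidogen 1, Nid1, one of 0.01. Over fits that left out 1 library Nid1 ran from -0.12 to 0.14. The median of the 7 genes lay 0.49 above that of the fibrillar collagens, 0.41 to 0.66 when 1 library was left out and 0.63 without MyoCre replicate 2 and K15-SKO replicate 3, a difference given with no test.

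Endothelial cells also make these proteins, and their markers are given beside this group. All 10 endothelial markers lay above the median of all genes and 0 of 10 passed the test, with a summed level of 137 to 172 FPKM in the 4 MyoCre libraries and 163 to 215 FPKM in the 4 K15-SKO ones. Fold changes were positive for 8 of the 10, with Tek at -0.10 and Flt1 at -0.02. At an unadjusted p under 0.05 by limma 2 of 10 were higher (0.901% of all genes). For 1 of them, Cdh5, every K15-SKO library lay above every MyoCre library (0.630% of all genes). The mean score of the 10 markers over the libraries had a Pearson r of 0.85 with the basement membrane score and of 0.28 with the fibrillar collagen score (n = 8 libraries, as a description). The endothelial marker with the smallest p, Eng, measured 12.4 ± 1.92 and 17.8 ± 3.14 FPKM (log2 fold change 0.50, limma adjusted p = 0.890). The 6 mural cell genes, 0 of them called, lay 0.08 above all genes by their median, and their r with the basement membrane score was 0.61. The 5 erythroid genes, 0 of them called, summed to 284 to 459 FPKM in the 4 MyoCre libraries, to 2034 FPKM in K15-SKO replicate 3 and to at least 320 FPKM in the other K15-SKO libraries, and their score had an r of 0.78 with the basement membrane score. Without MyoCre replicate 2 and K15-SKO replicate 3 the endothelial r was 0.85, the mural r 0.57 and the erythroid r 0.86. What part these cells had in the basement membrane values was not tested.

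Proteoglycans of the small leucine-rich kind bind collagen fibrils and set their width. Decorin, Dcn, the second most abundant of the 47 genes per length, held 215, 265, 232 and 287 FPKM in the 4 MyoCre libraries and 159, 277, 158 and 189 FPKM in the 4 K15-SKO ones. K15-SKO replicate 2 was the second highest of the 8, and the other 3 K15-SKO libraries were the lowest (log2 fold change -0.38, SE 0.21, limma adjusted p = 0.957). Biglycan, Bgn, measured 53.8 ± 9.20 and 48.4 ± 9.89 FPKM and lumican, Lum, 21.9 ± 5.14 and 21.2 ± 4.98 FPKM. Prelp and osteoglycin, Ogn, had log2 fold changes of -0.36 and -0.31. The group's median was -0.31, and the sign of Lum (-0.05) turned to 0.09 under median-of-ratios scaling.

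Tendon genes had negative fold changes in all 9 cases, though those of Scx and Comp turned to 0.00 and 0.03 under median-of-ratios scaling, and their median was -0.38. Kera, the keratocan proteoglycan, lay farthest from 0 of all 47 genes. It held 8.92, 13.5, 13.6 and 16.9 FPKM in the 4 MyoCre libraries and 6.66, 9.22, 2.51 and 6.53 FPKM in the 4 K15-SKO ones. The overlap came from 1 library on each side, since K15-SKO replicate 2 lay just above MyoCre replicate 1. The means were 13.2 ± 3.29 and 6.23 ± 2.77 FPKM, or 47.02% of the MyoCre mean (log2 fold change -1.12, SE 0.33, limma adjusted p = 0.475; unadjusted p = 0.00520). Without K15-SKO replicate 3, which had the lowest value, its log2 fold change was -0.77, and it was -1.33 without K15-SKO replicate 2. Thrombospondin 4, Thbs4, the most abundant tendon gene here, held 54.5, 117, 90.9 and 63.9 FPKM in the 4 MyoCre libraries and 44.1, 82.7, 55.9 and 41.04 FPKM in the 4 K15-SKO ones (log2 fold change -0.53, SE 0.27, limma adjusted p = 0.957). Its high libraries were MyoCre replicates 2 and 3 and K15-SKO replicate 2. Tenomodulin, Tnmd, a membrane protein of mature tendon cells, measured 31.00 ± 10.2 FPKM in MyoCre muscle, and its K15-SKO mean was 64.5% of that (log2 fold change -0.68, unadjusted p = 0.0568 by limma). The tendon transcription factors Scx and Mkx measured 13.1 ± 2.27 and 12.5 ± 4.86 FPKM and 2.90 ± 0.540 and 2.22 ± 0.530 FPKM. Fibromodulin, Fmod, chondroadherin, Chad, and cartilage intermediate layer protein 2, Cilp2, had log2 fold changes of -0.38, -0.43 and -0.23. Cartilage oligomeric matrix protein, Comp, was at -0.11.

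Matrix glycoproteins connect cells to the fibrils, and their median of -0.55 was the lowest of the 10 role groups with all libraries, but not without K15-SKO replicate 2, K15-SKO replicate 3 or MyoCre replicate 2. Tenascin C, Tnc, a glycoprotein of the myotendinous junction, held 2.95, 5.15, 2.80 and 3.01 FPKM in the 4 MyoCre libraries and 1.67, 2.81, 1.37 and 1.51 FPKM in the 4 K15-SKO ones. K15-SKO replicate 2 shared the MyoCre range and the other 3 K15-SKO libraries lay below it (log2 fold change -0.76, SE 0.23, limma adjusted p = 0.505; unadjusted p = 0.00584). Tnc is the second least abundant of the 47 per length. A gene on the opposite strand overlaps it, 8030451A03Rik, which had at most 0.0437 FPKM. Fibronectin, Fn1, measured 76.2 ± 27.4 and 49.5 ± 13.1 FPKM (log2 fold change -0.59, SE 0.26, limma adjusted p = 0.957; unadjusted p = 0.0379), and periostin, Postn, 71.3 ± 22.1 and 49.7 ± 14.8 FPKM. Sparc, a collagen-binding protein and the third most abundant of the 47, held 173, 315, 226 and 217 FPKM in the 4 MyoCre libraries and 143, 247, 261 and 169 FPKM in the 4 K15-SKO ones. Here K15-SKO replicates 2 and 3 exceeded all MyoCre libraries except replicate 2 (log2 fold change -0.19, 95% interval -0.71 to 0.32).

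Fibroblast markers were read from 3 genes. Gelsolin, Gsn, an actin-severing protein that fibroblasts express strongly though other cells do too, was the most abundant of the 47 per length, with 316, 356, 345 and 219 FPKM in the 4 MyoCre libraries and 191, 346, 216 and 146 FPKM in the 4 K15-SKO ones. Dermatopontin, Dpt, held 18.9, 23.1, 20.2 and 20.6 FPKM in the 4 MyoCre libraries and 10.2, 25.9, 14.6 and 10.7 FPKM in the 4 K15-SKO ones. Its MyoCre libraries lay close together, while K15-SKO replicate 2 was the highest of the 8 and the other 3 the lowest (log2 fold change -0.51, SE 0.26, limma adjusted p = 0.957). Pdgfra, the receptor that marks muscle fibroblasts and fibro-adipogenic progenitors, had the smallest coefficient of variation of the 47 (14.8% over the 8 libraries), at 10.9 ± 0.787 and 9.92 ± 2.08 FPKM (log2 fold change -0.15, 95% interval -0.54 to 0.25). Of the markers of other cells, macrophage genes lay below the median of all genes in 7 of 7 cases (0 past the test, summed level 67.5 to 78.3 FPKM in the 4 MyoCre libraries and 33.8 to 75.8 FPKM in the 4 K15-SKO ones) and adipocyte genes in 5 of 5 (0 past the test, 40.01 to 62.1 and 14.3 to 56.1 FPKM). Their scores had r of 0.74 and 0.56 with the score of the 47 genes, and of 0.84 and 0.71 without MyoCre replicate 2 and K15-SKO replicate 3. Their part in these values was not tested.

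Elastic fibre genes differed among themselves. Fibrillin 1, Fbn1, the microfibril protein, held 31.3, 42.5, 35.1 and 44.9 FPKM in the 4 MyoCre libraries and 16.5, 34.5, 37.8 and 26.1 FPKM in the 4 K15-SKO ones, and the microfibril-associated Mfap5 28.9, 36.9, 27.4 and 37.6 and 12.2, 28.7, 32.2 and 22.4 FPKM. In both genes K15-SKO replicate 1 was the lowest of all and replicates 2 and 3 lay within the MyoCre range. Elastin, Eln, had the higher mean in K15-SKO muscle, 15.4 ± 10.1 against 10.6 ± 3.26 FPKM, with replicates 2 and 3 at 19.02 and 28.1 FPKM, and replicates 1 and 4 at 6.39 and 8.24 FPKM. Without K15-SKO replicate 3 its log2 fold change of 0.33 became -0.03.

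Collagen processing and turnover genes also overlapped between the genotypes. Pcolce, the enhancer of procollagen trimming, held 21.6, 31.01, 25.4 and 23.7 FPKM in the 4 MyoCre libraries and 13.6, 24.4, 26.1 and 14.2 FPKM in the 4 K15-SKO ones (log2 fold change -0.42, SE 0.24, limma adjusted p = 0.957). Serpinh1, the collagen chaperone Hsp47, held 44.9, 64.9, 41.8 and 39.9 and 28.3, 47.4, 60.5 and 31.2 FPKM (log2 fold change -0.23). The cross-linking enzymes Lox and Loxl1 had log2 fold changes of -0.16 and -0.02, and that of Loxl1 turned to 0.11 under median-of-ratios scaling. Timp1, an inhibitor of metalloproteinases that is induced in injured tissue, had the largest coefficient of variation of the 47 genes (59.99%), from 1.77 to 12.5 FPKM. It held 5.63, 12.5, 4.46 and 7.19 FPKM in the 4 MyoCre libraries and 1.80, 6.73, 1.77 and 5.53 FPKM in the 4 K15-SKO ones, so 2 K15-SKO libraries lay below the rest and 2 within the MyoCre range (log2 fold change -0.94, SE 0.46, limma adjusted p = 0.957). Timp3, the inhibitor that stays bound to the matrix, held 37.4, 47.2, 44.9 and 29.7 and 41.8, 49.5, 37.4 and 39.3 FPKM (log2 fold change 0.09), Timp2 had a log2 fold change of -0.36 and the gelatinase Mmp2 one of -0.28.

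**Figure D2:**
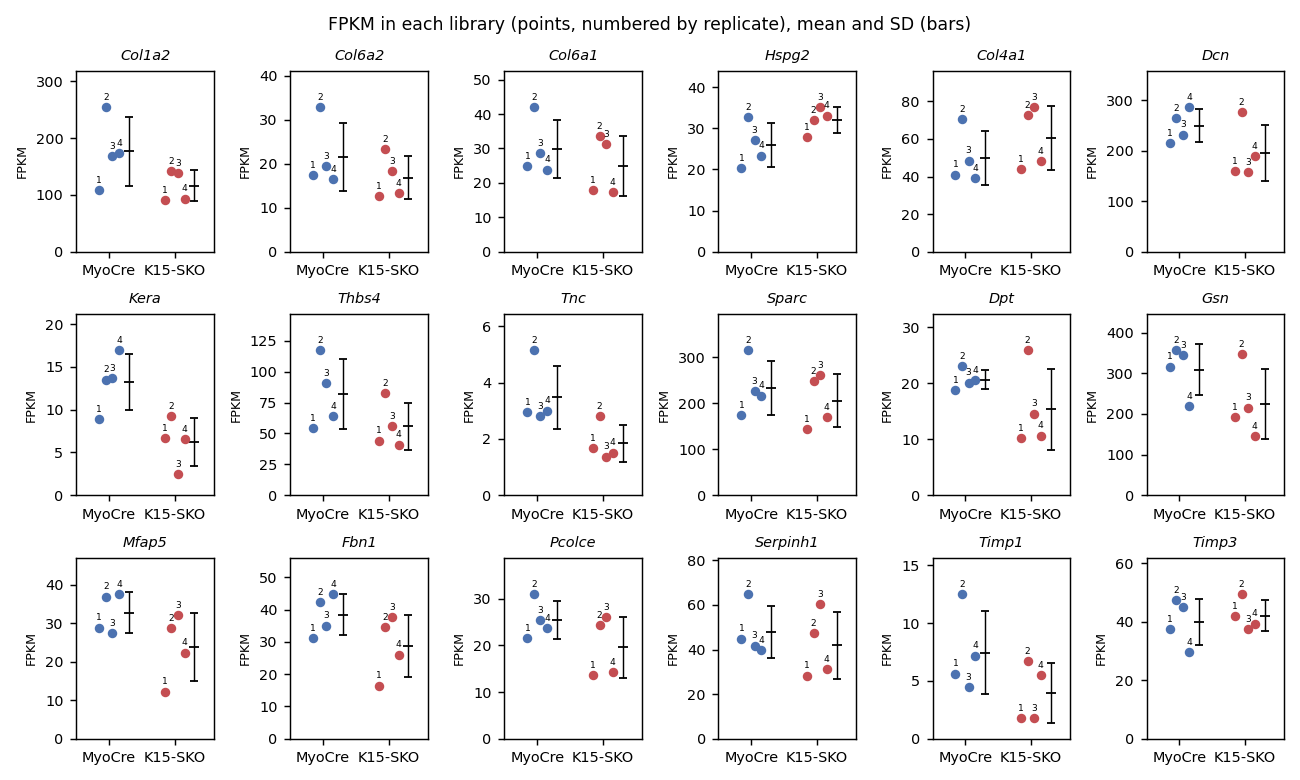
FPKM (vertical axes, from 0) of 18 genes in each library, with MyoCre in blue, K15-SKO in red, points numbered by replicate and bars for the mean ± SD of 4 libraries. The genotypes overlap in every panel, and MyoCre replicate 2 and K15-SKO replicate 2 are often the highest of their group.

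The promoters of Timp1, Tnc and Thbs4 are shown because, of the 18 genes given with a value in every library, these have the fold changes farthest from 0 among those whose 250 bases before the RefSeq start (GRCm38.p6) overlap no annotated exon. Capitals mark the CCAAT box and the TATAAA element on either strand, and also CACCC on either strand, which is the core of the box that Kruppel-like factors bind. The windows are chrX:20869916-20870165 on the plus strand for Timp1, chr4:64047016-64047265 on the minus strand for Tnc and chr13:92794819-92795068 on the minus strand for Thbs4, each printed 5′ to 3′.
Timp1: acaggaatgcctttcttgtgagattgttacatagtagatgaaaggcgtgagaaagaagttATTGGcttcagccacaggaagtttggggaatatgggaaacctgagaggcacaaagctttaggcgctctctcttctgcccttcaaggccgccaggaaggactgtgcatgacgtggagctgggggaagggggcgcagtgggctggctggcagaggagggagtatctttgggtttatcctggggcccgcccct
Tnc: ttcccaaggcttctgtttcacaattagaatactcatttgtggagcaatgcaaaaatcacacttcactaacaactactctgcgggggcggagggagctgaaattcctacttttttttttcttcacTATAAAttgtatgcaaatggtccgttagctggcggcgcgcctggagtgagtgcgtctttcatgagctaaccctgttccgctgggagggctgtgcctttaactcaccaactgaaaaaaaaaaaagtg
Thbs4: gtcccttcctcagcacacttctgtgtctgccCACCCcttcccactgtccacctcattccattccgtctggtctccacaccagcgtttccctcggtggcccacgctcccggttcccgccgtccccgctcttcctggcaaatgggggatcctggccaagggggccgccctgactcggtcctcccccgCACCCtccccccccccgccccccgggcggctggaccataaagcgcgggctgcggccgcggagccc
The Timp1 window holds 1 CCAAT box, on the opposite strand, the Tnc window 1 TATAAA element, and the Thbs4 window CACCC 2 times. Of the 47 genes 33 had a RefSeq window, and 23 of these held CACCC, where 52.0% of all 32851 windows did. CCAAT was in the windows of 10 of the 33 genes (33.9% of all windows), TATAAA in those of 5 (12.4%) and the E-box CANNTG, the kind of site that Scx binds, in those of 18 (66.2%). A gene was counted if any of its windows held the letters, and a few genes, such as Gsn, have several windows. The counts of genes are therefore not quite alike in unit to the shares of single windows. A match describes letters and is no measured binding site.

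Many of the 47 genes varied together over the 8 libraries, though not all did. The median Pearson r of log2 values over the 1081 pairs of members was 0.63, with a range of -0.52 to 0.99. The median was 0.66 after each genotype's mean was subtracted. These are descriptions over libraries that differ in estimated depth and in sex. The part of depth, sex and dissection in the co-variation was not tested. Of the 42 genes that are not fibrillar collagens, 20 had an r over 0.8 with the fibrillar collagen score (47.6%, median 0.79), where 1.57% of all genes tested did (median 0.03). Without MyoCre replicate 2 the median r of the pairs was 0.57 and 14 of 42 genes passed 0.8 (33.3%, 1.58% of all genes). Without K15-SKO replicate 3 they were 0.72 and 25 of 42 (59.5%, 3.26% of all genes). Sparc (0.98), Col6a3 (0.96), Pcolce (0.95) and Bgn (0.95) were the closest to it. Within the role groups the median r was 0.89 for fibrillar collagens, 0.96 for collagen VI, 0.72 for basement membrane, 0.64 for tendon genes and 0.50 for proteoglycans.

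**Figure D3:**
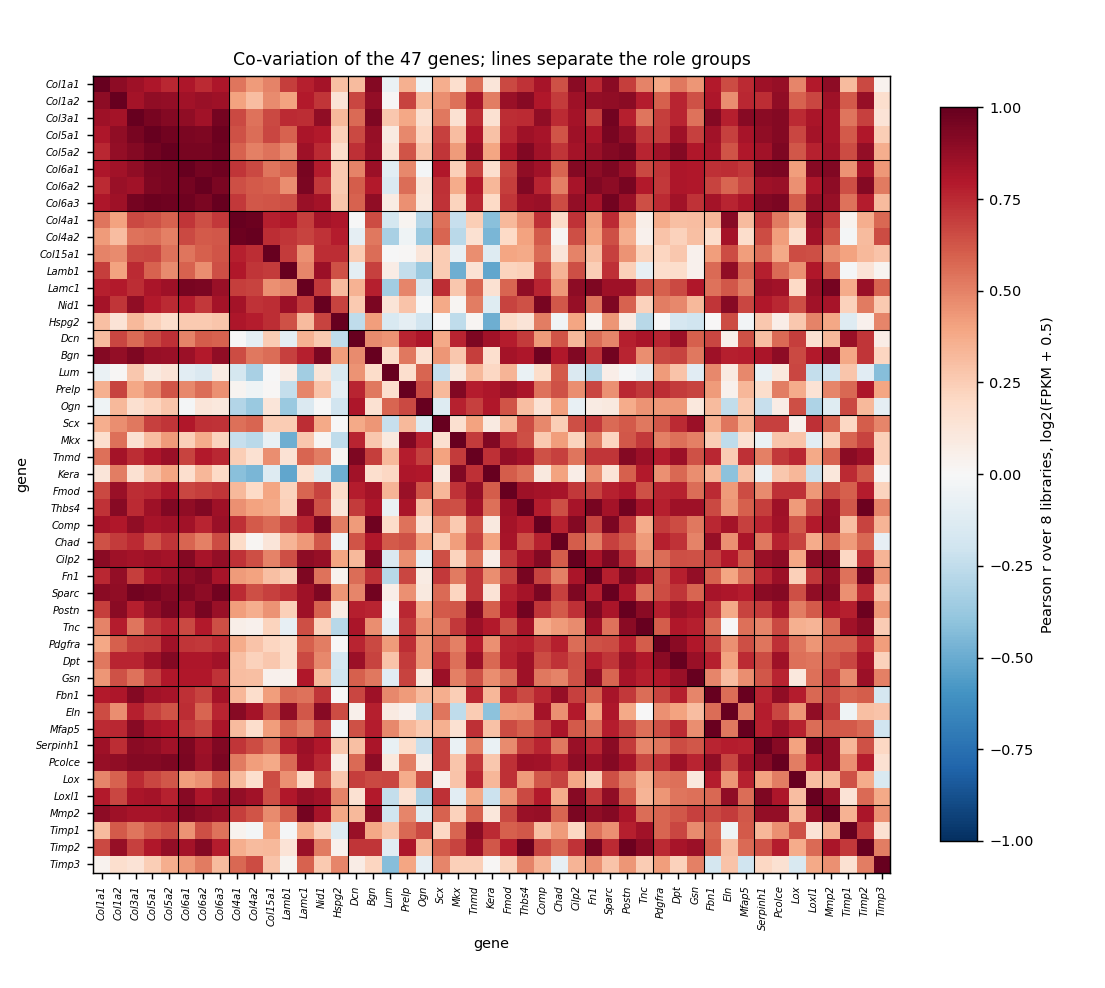
Pearson r over the 8 libraries (colour, from -1 to 1, of log2(FPKM + 0.5)) between each pair of the 47 genes, with black lines between the role groups. Fibrillar collagens and collagen VI form a block of high r, while Lum, Ogn, Mkx and Kera have r between -0.52 and 0.27 with the basement membrane genes.

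Chains of 1 molecule and known partners were tested as 10 pairs, with exact permutation over all orders of the 8 libraries and adjustment over the 10 pairs. The permutation asks only whether a pair varies together at all, and the median r over the 1081 pairs of members was 0.63. Some pairs from different role groups reached 0.98 (Postn and Timp2) and 0.97 (Sparc and Bgn). Whether partners vary together more than other pairs of members was not tested. Col4a1 and Col4a2 had a Pearson r of 0.98 (exact permutation p = 0.000496, adjusted 0.00124) and a Spearman rho of 0.90 (exact permutation p = 0.00456, adjusted 0.00913), with r 0.96 without the 2 libraries farthest from the median. The type VI pair Col6a1 and Col6a3 had r 0.97 and rho 0.95 (exact permutation p = 0.000223 and 0.00114, adjusted 0.00112 and 0.00570; 0.97 without 2 libraries). Col6a1 and Col6a2 had r 0.96 and rho 0.95 (exact permutation p = 0.000174 and 0.00114, adjusted 0.00112 and 0.00570; 0.95 without 2 libraries). The ratio of FPKM within a library ran from 1.46 to 1.75 for Col4a1 over Col4a2, from 1.37 to 1.64 for Col6a1 over Col6a3 and from 1.28 to 1.72 for Col6a1 over Col6a2.

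Type V and type I chains came next. Col5a1 and Col5a2 had r 0.97 and rho 0.90 (exact permutation p = 0.000397 and 0.00456, adjusted 0.00124 and 0.00913; 0.92 without 2 libraries). Col1a1 and Col1a2 had r 0.90 and rho 0.83 (exact permutation p = 0.00268 and 0.0154, adjusted 0.00536 and 0.0256; 0.74 without 2 libraries). The ratio of Col1a1 to Col1a2 was 0.708 to 0.886 in 7 libraries and 1.24 in K15-SKO replicate 3, and without that library r was 0.98. Col3a1 and Col1a1 had r 0.85 and rho 0.90 (exact permutation p = 0.00655 and 0.00456, adjusted 0.0109 and 0.00913; 0.73 without 2 libraries).

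The other 4 pairs missed an adjusted p of 0.05 in either measure. Kera and Fmod had r 0.61 and rho 0.71 (exact permutation p = 0.0976 and 0.0576, adjusted 0.139 and 0.0823; 0.83 without 2 libraries). Lamb1 and Lamc1, 2 chains of laminin, had r 0.49 and rho 0.43 (exact permutation p = 0.222 and 0.299, adjusted 0.278 and 0.299; 0.56 without 2 libraries), and under median-of-ratios scaling r was 0.79 with an adjusted exact permutation p of 0.0174. Dcn and Lum had r 0.45 and rho 0.55 (exact permutation p = 0.266 and 0.171, adjusted 0.296 and 0.214; 0.02 without 2 libraries). Scx and Tnmd, a tendon regulator and a gene known to depend on it, had r 0.40 and rho 0.52 (exact permutation p = 0.332 and 0.197, adjusted 0.332 and 0.218; 0.28 without 2 libraries).

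Group scores, the mean of each group's centred log2 values in a library, show where the groups part. Fibrillar collagens scored -0.24, 0.73, 0.12 and 0.18 in MyoCre replicates 1 to 4 and -0.72, 0.18, 0.23 and -0.48 in K15-SKO replicates 1 to 4. Basement membrane scored -0.30, 0.33, -0.10 and -0.23 in MyoCre and -0.23, 0.23, 0.36 and -0.06 in K15-SKO muscle. In K15-SKO replicate 3 the basement membrane, elastic fibre, collagen processing, fibrillar and collagen VI scores were above 0. The proteoglycan score there was -0.33, the remodelling score -0.32, the tendon score -0.24, and the matrix glycoprotein and fibroblast scores -0.19 each. Over the 8 libraries the fibrillar score had an r of 0.94 with collagen VI, 0.85 with tendon, 0.68 with basement membrane and 0.55 with proteoglycans. With each genotype's mean subtracted, the value for basement membrane became 0.96 and those for the other 3 0.94, 0.81 and 0.42. Without MyoCre replicate 2 and K15-SKO replicate 3 together (n = 6) the r was 0.89 with collagen VI, 0.97 with tendon, 0.40 with basement membrane and 0.93 with proteoglycans.

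**Figure D4:**
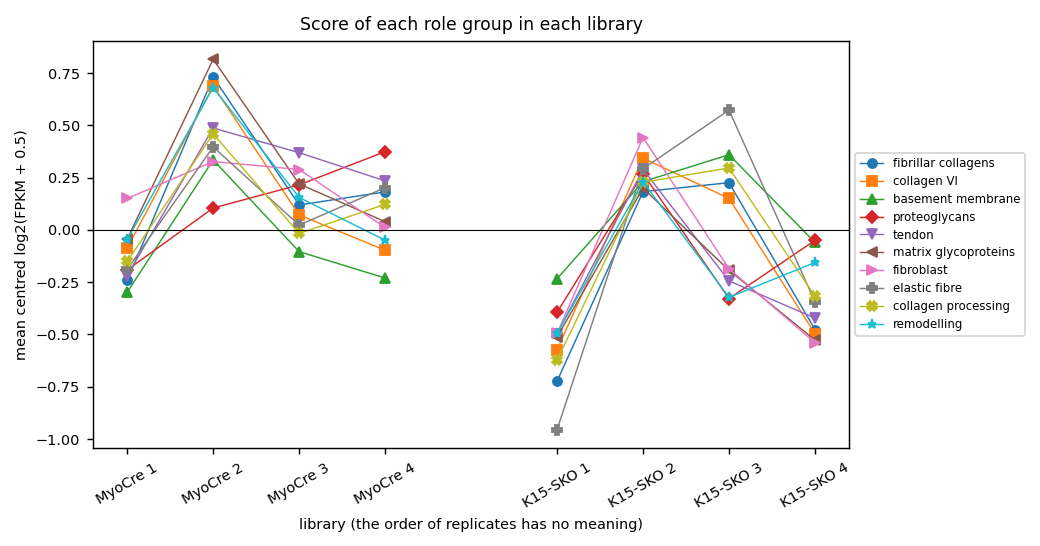
Score of each of the 10 role groups (mean of centred log2(FPKM + 0.5), vertical axis) in each library, with lines that only link the points of a group within a genotype. MyoCre replicate 2 is at or near the top for most groups and K15-SKO replicate 1 at or near the bottom, and the basement membrane spans a narrower range, from -0.30 to 0.36, than the fibrillar collagens, from -0.72 to 0.73.

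Ratios within a library do not depend on how libraries are scaled, and those of basement membrane to fibrillar genes were formed after the values were seen, as a description. Col4a1 over Col1a2 was 0.377, 0.277, 0.289 and 0.225 in MyoCre replicates 1 to 4 and 0.483, 0.514, 0.559 and 0.518 in K15-SKO replicates 1 to 4. All 4 K15-SKO ratios lay above all 4 MyoCre ratios, with means of 0.518 ± 0.0313 and 0.292 ± 0.0629 (SD, n = 4 each), a ratio of means of 1.78. Col4a2, Col15a1, Nid1 and Hspg2 over Col1a2 were separated in the same way, with ratios of means of 1.83, 1.63, 1.48 and 1.87. Of 46 members set over Col1a2, 7 were separated upward and 0 downward, the remaining 2 being Comp and Eln. Over Col1a2, 2.78% of all genes tested were separated upward and 0.0239% downward. Over the other fibrillar collagens fewer of the 7 genes were separated upward: 3 for Col5a1 (0.854% of all genes), 2 for Col3a1 (0.662%), 2 for Col5a2 (1.27%) and 1 for Col1a1 (1.08%). In all, 13 of the 35 ratios were separated upward and 0 downward, and without MyoCre replicate 2 the upward count was again 13. Without K15-SKO replicate 3 it was 18 of 35, where 19.8% of all genes were separated upward over Col1a1 and 8.04% over Col1a2. The mean ratio was higher in K15-SKO muscle for 35 of 35, near the 85.4 to 95.5% of all genes that had a higher mean over a given fibrillar collagen.

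A limma fit of all genes relative to the mean of the 5 fibrillar collagens in each library, also added after the values were seen, called 0 of the 7 basement membrane genes (0.423% of all genes were called higher). None had an unadjusted p under 0.05 there (1.67% of all genes did, upward), and the smallest adjusted p was 0.885. Col4a2 had the largest difference, 0.73 with a SE of 0.42, and the median of all genes was 0.27 on that scale. The SEs of the members in this fit were nearly alike, from 0.40 for Gsn to 0.42 for Col6a2. Even Col5a2, a gene of the reference itself, had 0.42. These SEs hardly follow a gene's own spread, so genes that vary with the fibrillar collagens could scarcely pass. The fit therefore cannot decide on the separated ratios. Leaving out each library in turn gave 0 called in each of the 8 fits, and 2 of the 7 with an unadjusted p under 0.05 by limma without K15-SKO replicate 3, where 5.12% of all genes had one upward.

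**Figure D5:**
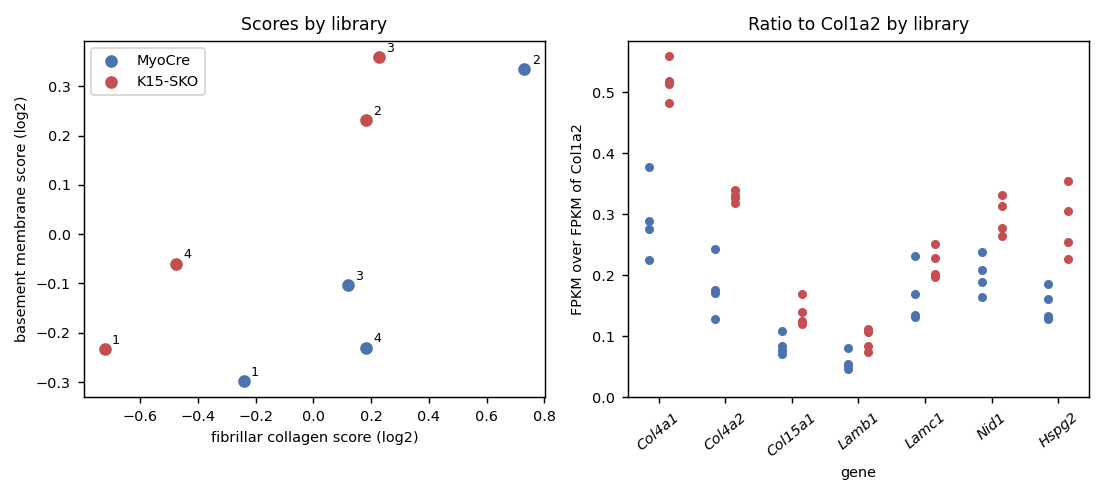
Left, basement membrane score against fibrillar collagen score (both mean centred log2 values), with each point 1 library numbered by replicate. Right, FPKM of each basement membrane gene divided by FPKM of Col1a2 in the same library (vertical axis from 0), where 5 of the 7 genes have every K15-SKO point (red) above every MyoCre point (blue).

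Further matrix genes that are not among the 47 were read from 5 lists, with 65 of 68 symbols in the table, the rest being second names of listed genes, and 57 tested. Over all 57, 0 passed the test, and at an unadjusted p under 0.05 by limma 7 were lower and 2 higher. These are 12.3% and 3.51% of the 57, where 3.43% of all genes were lower and 0.901% higher. Other collagens lay below the median of all genes in 7 of 8 cases, with a median of -0.51 on the log2 scale, and Col11a1, a minor fibrillar collagen, had the smallest p, with 6.66 ± 2.28 and 3.86 ± 0.912 FPKM (log2 fold change -0.68, limma adjusted p = 0.762). Other basement membrane genes had a median of 0.11, with 5 of 7 above the median of all genes, and the laminin alpha 5 chain Lama5 measured 2.86 ± 0.791 and 4.56 ± 0.941 FPKM (log2 fold change 0.60, limma adjusted p = 0.768). Lama2, the laminin chain of the muscle fibre's own basement membrane, named after its value was seen, had a log2 fold change of -0.26. The rest of this list had log2 fold changes of 0.49 for Agrn, 0.37 for Nid2, 0.11 for Lamb2, -0.06 for Lama4 and -0.22 for Col4a5. Collagen-modifying enzymes had a median of -0.20 over 14 genes, matrix receptors one of -0.18 over 12, and TGF-beta pathway genes one of -0.12 over 16. Among the enzymes the smallest p belonged to Loxl2 (-0.41) and among the receptors to the fibronectin receptor chain Itga5 (-0.37), given as log2 fold changes.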

How the data were processed

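The authors deposited 1 table of soleus RNA sequencing values for 8 libraries, taken here to be FPKM. That unit was inferred, since the header holds only sample names, and the submitters' processing notes name STAR, Cufflinks and Cuffdiff with the mm10 build and no versions. The sources used here give no strand setting, annotation release or scaling, so reads of overlapping genes on opposite strands cannot be told apart, which touches 14 of the 47 genes. Values were tested as log2(FPKM + 0.5) with limma 3.58.1 under R 4.3.3 (trend and robust variance, genotype only, two-sided) on genes whose mean reached 1 FPKM, with Benjamini-Hochberg adjustment over all 12535 genes and a threshold of 0.05. Fold changes on this scale understate those of low genes. The labels give 4 samples per genotype and do not say outright that each is another mouse, so p-values measure the spread between these samples. Coordinates are from GENCODE M21 (mm10), where 23896 of 24033 gene IDs matched without their version and 35 of 47 member IDs with it.

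The 47 genes, their 10 role groups and the other lists were chosen with earlier results of these data known. Per-library values are given for the gene with the smallest p and the most abundant gene of each role group, and other values by choice after they were seen. The gene with the smallest p is also named for the other lists, except for a few that are not reported here. The fit was checked on simulated data with independent noise for each gene, which held no variation shared by the genes of a library. Alternatives were a pseudocount of 1 or 0.1, a minimum mean of 5 FPKM or none, other scaling (median of ratios, quantile), ordinary variance estimation, weights per library, omission of genes listed at 0 in a genotype, the replicate number as a block, and each library left out. Protein sequences were not used here. Means ± SD are over 4 samples, and their spread includes counting error that FPKM does not show.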

Additional observations from a re-analysis of the deposited data

Results flagged for a closer look

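In 4 of the 94 sets of 4 values (47 genes in each genotype) 1 library stood far from the other 3, where chance at 1 in 20 gives 4.7. MyoCre replicate 2 was the high library in 3 of them: 25.9 FPKM of Col6a3 against 16.03 to 17.5 in the other MyoCre libraries, 5.15 FPKM of Tnc against 2.80 to 3.01, and 9.03 FPKM of Loxl1 against 5.62 to 6.19. MyoCre replicate 1 was the low library for Fmod, with 34.3 FPKM against 66.3 to 71.1. Without MyoCre replicate 2 the log2 fold change of Tnc was -0.58, and with all libraries -0.76. That library was the deepest by the rough estimate and the only male one by its Y-linked genes. The part of either in these values was not tested.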

How the results depend on the processing

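No member was called in any of the 19 alternative fits, and the smallest adjusted p of a member in limma was 0.0824, with the replicate block. Of 891 recomputed fold changes of members 863 kept their sign and 28 did not, in 9 genes. Median-of-ratios scaling gave 0.0869 for Lum, 0.00250 for Scx, 0.0265 for Comp and 0.11 for Loxl1, and quantile normalization 0.0792, 0.00373, 0.0299 and 0.10. Library weights gave -0.18 for Lamb1, -0.19 for Nid1 and -0.23 for Eln, and medians relative to all genes of -0.79 for elastic fibre and -0.48 for collagen processing genes. Nid1 was -0.00965 without MyoCre replicate 2 and K15-SKO replicate 3, an alternative chosen after seeing the data. Over fits without 1 library the log2 fold change ran from -0.12 to 0.14 for Nid1, -0.18 to 0.12 for Loxl1, -0.19 to 0.12 for Lum, -0.35 to 0.13 for Lox, -0.0398 to 0.18 for Timp3, -0.26 to 0.0454 for Comp, -0.0628 to 0.26 for Lamb1, -0.0258 to 0.66 for Eln and -0.34 to 0.10 for Scx. The median of the 47 genes relative to all genes was -0.19 in the main model and -0.42 with library weights, and over fits without 1 library it ran from -0.33 to -0.0142, that of basement membrane genes from 0.14 to 0.41 and that of fibrillar collagens from -0.52 to -0.0306. Over all genes 23 lower and 46 higher calls became 15 lower with median-of-ratios scaling, 14 with quantile normalization, 15 without robust estimation and 101 with library weights, while the higher calls became 22 with a minimum mean of 5 FPKM. Without genes listed at 0 in a genotype 12 lower and 0 higher calls remained in number, and leaving out 1 library gave 8 to 28 lower and 45 to 54 higher calls. Median-of-ratios scaling raised the r of Lamb1 and Lamc1 from 0.49 to 0.79, past the threshold. The causes were not tested. At an unadjusted p under 0.05 the count of members that were lower was 4 in the main model, 21 with library weights and 16 with the replicate block, and 2 to 17 without 1 library, where 3.43, 8.34, 4.56 and 2.07 to 5.08% of all genes were lower. With the replicate block the log2 fold changes were those of the main model, 32 genes were called lower and 46 higher, and 0 members. Same-numbered libraries of the genotypes correlated in their deviations at 0.10, 0.23, 0.0022 and 0.28. For MyoCre replicates 1, 2 and 4 the same-numbered K15-SKO library gave the highest r, while MyoCre replicate 3 correlated best with K15-SKO replicate 1. The main model does not pair libraries by number, and whether the numbers mark pairs was not tested. FPKM shows no fragment counts, so how far depth limits each member is unknown.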

Other observations

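The r with the fibrillar collagen score was low for a few proteoglycan and tendon genes, and it turned on single libraries. With all 8 libraries it was 0.10 for Lum, 0.19 for Ogn, 0.30 for Kera and 0.33 for Mkx, against a median of 0.79 for the 42 members outside the fibrillar collagens and 0.03 for all genes (described after the values were seen). Without K15-SKO replicate 3 it was 0.80 for Kera, 0.70 for Mkx and 0.45 for Ogn, and without MyoCre replicate 2 it was 0.61 for Lum. Kera had an r of 0.92 with Mkx, a transcription factor of tendon, 0.84 with Dcn, 0.81 with Prelp and 0.80 with Ogn, and -0.52 with Lamb1. After each genotype's mean was subtracted, the r with the fibrillar score was -0.07 for Kera and 0.93 for Eln. The r of Eln with the 7 basement membrane genes ran from 0.62 for Lamc1 to 0.91 for Col4a1, and it was 0.88 with Loxl1, 0.83 with Comp and 0.81 with Sparc. Steady genes were Pdgfra, Timp3 and Lamc1, whose values over the 8 libraries had a coefficient of variation of 14.8%, 15.5% and 16.2%, against 59.99% for Timp1, 57.05% for Eln and 48.2% for Kera.

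The marker lists of other cells not given above had 0 of 4 Schwann cell genes called (median 0.08 below that of all genes) and 0 of 7 slow muscle genes (0.01 above, Tnnc1 at -0.26). Of 6 fast muscle genes 1 was called, Myh2, which is listed at 0 in all 4 MyoCre libraries and at 738 to 2095 FPKM in the K15-SKO ones. The values of 0 were taken as listed, and their cause was not tested. Smallest p-values in the mural, macrophage, adipocyte and erythroid lists belonged to Notch3 (0.32), Mrc1 (-0.40), Plin1 (-0.65) and Alas2 (0.80), as log2 fold changes with limma adjusted p of 0.940 to 0.957.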
